A study of Mus musculus with 8 samples.

Results

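The protein tyrosine phosphatases of the prefrontal cortex are described here in a mouse model of Fabry disease. Members were taken by name, as every probe of the array whose gene symbol begins with Ptpr and a letter or consists of Ptpn and a number. This rule uses no measured value, but the family and its classes were chosen with earlier results of these data known. Of 55681 probes on the array without controls, 69 belonged to this family, and they stood for 39 of its 34650 gene names. Tested were 63 of these probes, from 38 genes, within a test of all 34339 probes that the scanner flagged as well above background in every mouse of one genotype or the other. The symbol rule also takes in Ptprcap, which is no phosphatase but a small membrane protein that binds Ptprc, and Ptprn and Ptprn2, whose phosphatase domains have little or no known activity towards phosphotyrosine.

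Protein tyrosine phosphatases remove phosphate from tyrosine residues and thereby oppose tyrosine kinases. Receptor-type members (Ptpr) span the cell membrane and carry extracellular domains that bind ligands or neighbouring cells, whereas non-receptor members (Ptpn) act inside the cell. In the brain, some are typical of blood vessels, such as Ptprb on endothelium, some organize synapses, such as Ptprd, Ptprs and Ptprf, and some serve immune cells including microglia, such as Ptprc and Ptpn6.

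RNA came from prefrontal cortices of 4 α-Gal A(-/0) males, a knockout of the lysosomal enzyme α-galactosidase A on a C57BL/6 background, and of 4 wildtype C57BL/6J males, all 20 to 24 weeks old and with no treatment named in the labels. The genotypes were kept as inbred lines and not compared as littermates, so that differences between the lines and effects of the enzyme's loss cannot be told apart. Each mouse had 1 array with a single dye, all 8 on 1 slide and in 1 scan. Signals are log2 brightness after quantile normalization, and log2 fold changes give α-Gal A(-/0) relative to wildtype, negative where α-Gal A(-/0) mice were lower, with the standard error (SE) and with p-values from limma adjusted over all tested probes.

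The array measured brightness with 60-base probes, and precision is limited by having 4 arrays in each genotype. On the α-Gal A(-/0) arrays 29943 to 36139 probes were well above background, with the lowest number in replicate 2, and on the wildtype arrays 35648 to 38240. On the slide, row 1 held α-Gal A(-/0) replicate 1 with wildtype replicates 1, 2 and 3, and row 2 held α-Gal A(-/0) replicates 2, 3 and 4 with wildtype replicate 4, so that row and genotype overlap in part. The probe of Gla, the gene of α-galactosidase A, lay at 17.13 to 17.18 in α-Gal A(-/0) mice and at 17.01 to 17.17 in wildtype mice (log2 fold change 0.06, SE 0.06, adjusted p = 0.71), so that it does not check the labels. The position of this probe relative to the disrupted part of the gene is not given in the sources used here.

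The probes on which the results turn are shown by their first 30 of 60 bases, 5′ to 3′, as the array files give them, with positions on the mm9 build and the base of the transcript at which the design places the probe. For Ptprb, 3 probes lie along one gene on the plus strand of chromosome 10, at chr10:115756725-115756784 (base 2380), chr10:115820912-115820971 (base 6229) and chr10:115824180-115824239 (base 9497). They share no bases, so that each is a separate readout of the gene.
Ptprb, base 2380: tctgtactccctaaaggtgagctattataa
Ptprb, base 6229: caatctactcgagacattaagaattcacct
Ptprb, base 9497: gcttctcttagctccgtgttaaggctctaa
Those of Ptprg lie on the plus strand of chromosome 14, at chr14:13058888-13058947 (base 4660), chr14:13071066-13071125 (base 5702) and chr14:13074419-13074478 (base 9055), and are shown because they gave unlike values.
Ptprg, base 4660: tataagtagtaccttcgaactgatcaatgt
Ptprg, base 5702: agatttcacagtagctatgtggacagtgtg
Ptprg, base 9055: gggggaggggttttataacctgaaattttt
Ptprn2 is read at chr12:117960601-117960660 (base 350) and by a pair of overlapping probes at chr12:118515207-118515266 (base 3254) and chr12:118515222-118515281 (base 3269), all on the plus strand. The overlapping pair has 45 bases in common, of which capitals mark the 15 that fall in the printed stretch of both, so that these probes are not independent readouts.
Ptprn2, base 350: accgatatgaggtaccaccaggagccctgc
Ptprn2, base 3254: cacagtcagtgcaggTGGCTAGTCATGTGT
Ptprn2, base 3269: TGGCTAGTCATGTGTacttctgattgacca
The remaining genes shown had 1 tested probe each, without overlap of the genotypes, and are the called gene, Ptpn20, and the immune members Ptpn18 and Ptprc, at chr14:34453495-34453554 (Ptpn20, plus strand), chr1:34530561-34530620 (Ptpn18, plus strand) and chr1:139961083-139961142 (Ptprc, minus strand).
Ptpn20, base 2644: agacactcctaattatcagccacaaagaaa
Ptpn18, base 1509: cagtgtgttatgtatgagtgggacttgtgg
Ptprc, base 3861: gaggaaccagaacatgctgccaatggttct

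Across the family, most probes differed little between the genotypes and the few larger differences were mostly lower in α-Gal A(-/0) mice. Only the probe of Ptpn20, a non-receptor phosphatase known mainly from testis, passed the test, and it fell. Of all 34339 tested probes 0.885% were called in either direction and 0.58% were called lower, and of the 63 tested family members 1 was called lower and 0 higher. At an unadjusted p under 0.05, 12 member probes were lower and 2 higher, where 7.57% of all tested probes were lower and 4.42% higher. The study's own criterion, a fold change of 1.2 or more at an unadjusted p of 0.01 or less, took in 5 lower and 1 higher member probes. Over all tested probes 3.46% passed this criterion, 2.32% lower and 1.14% higher. The 5 lower probes, 7.94% of those tested, were those of Ptpn20, Ptpn18, Ptprg at base 9055 and Ptprb at bases 6229 and 9497, and the higher probe was that of Ptprn2 at base 350. Among these genes, Ptprb and Ptprg had already been listed as downregulated by the study in the same mice. The genotypes did not overlap for 8 probes with lower signals and 1 with higher signals in α-Gal A(-/0) mice, against 4.87% and 3.08% of all tested probes. Of the 63 tested probes, 11 entered the test only through the wildtype mice, among them those of Ptpn20 and Ptprc. The family counts are therefore a description and no support for a difference of the family.

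By gene, with the brightest probe taken for each, 25 of the 38 tested genes lay below 0 and 13 above 0, a share of 65.8% below 0 beside 57.4% of all 23638 tested genes. Their median log2 fold change was −0.08, and that of all tested genes −0.02. Genes whose probes entered the test only through the wildtype mice are included, so that these values too are a description. Values smaller than 0.2 in size were found for 45 of the 63 probes. For 33 probes the 95% interval lay within 0.4 of 0 on both sides, and 49 intervals included 0. Receptor-type genes had a median of −0.07 over 20 genes and non-receptor genes one of −0.12 over 17 genes.

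**Figure D1:**
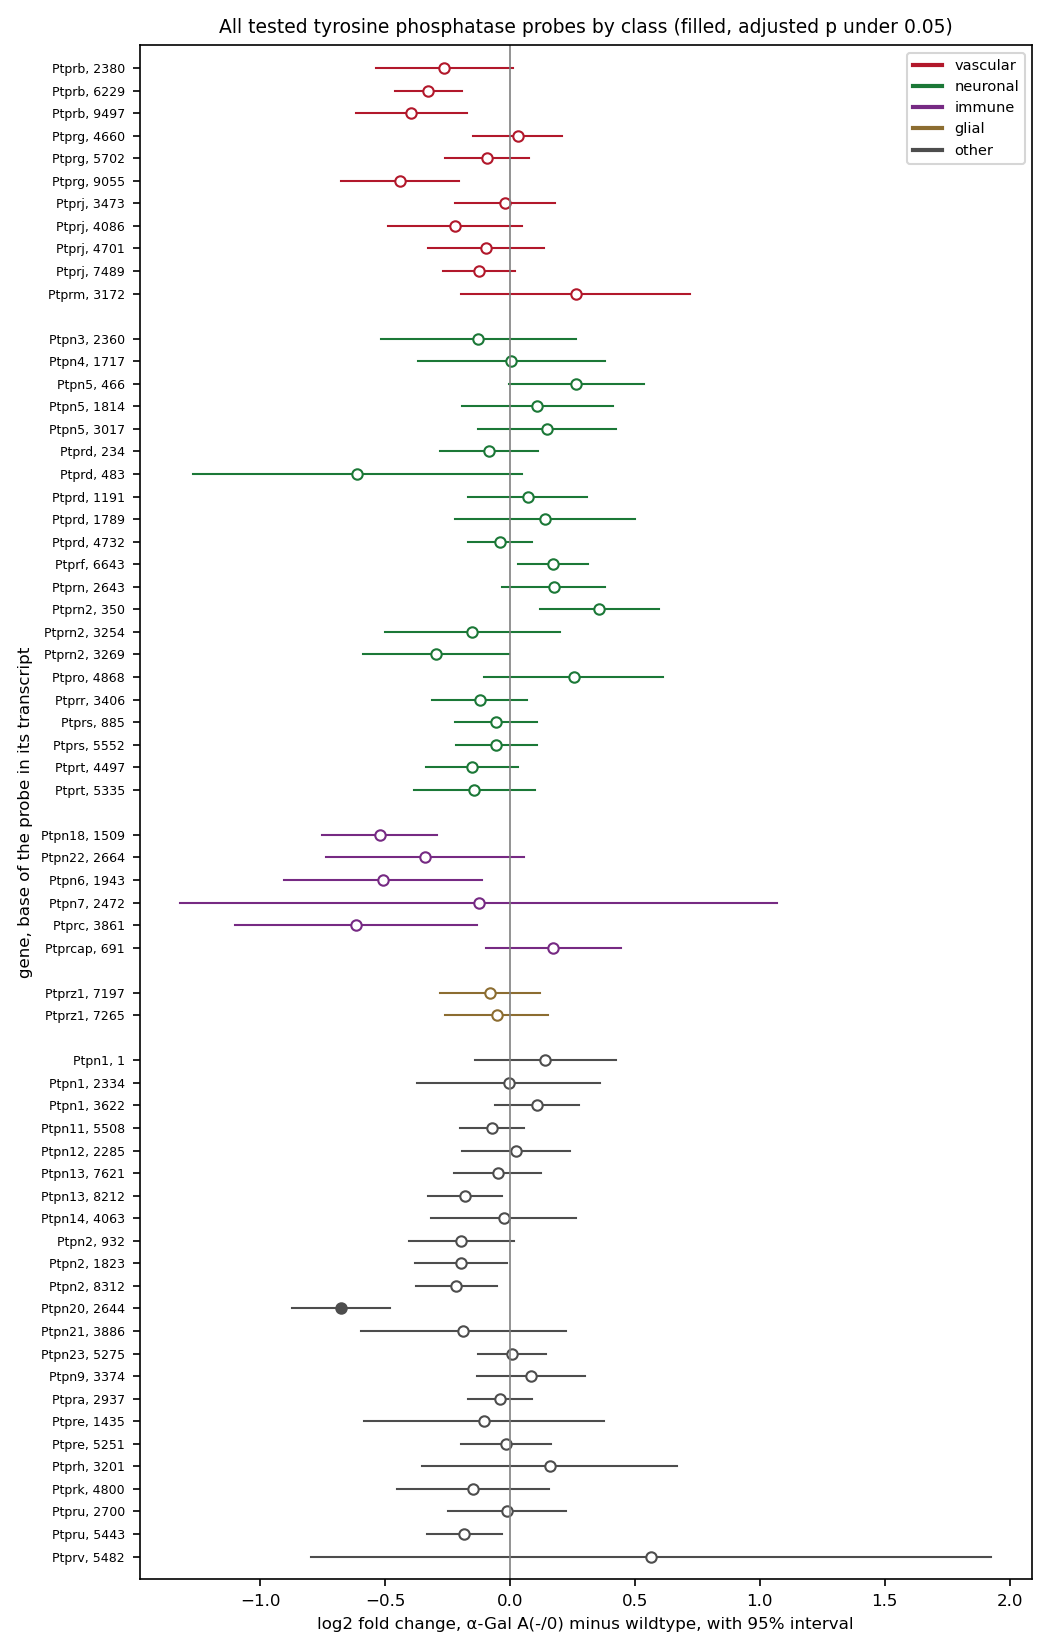
Log2 fold change, α-Gal A(-/0) minus wildtype, of all 63 tested tyrosine phosphatase probes on the horizontal axis, with bars for the 95% interval from limma (4 mice per genotype) and colours for the class of the gene; rows give the gene and the base of the probe. The probe of Ptpn20, at −0.68, is the filled point, and the probes of Ptpn7 and Ptprv have the widest intervals.

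No vascular member passed the test, although the signals of 3 probes, of Ptprb and Ptprg, did not overlap between the genotypes. This class held Ptprb, the vascular endothelial phosphatase that dephosphorylates the angiopoietin receptor Tek, Ptprm, a homophilic adhesion phosphatase, Ptprj, which acts on growth factor receptors of endothelium and blood cells, and Ptprg, a receptor-type phosphatase with a carbonic anhydrase-like domain that is found on endothelium and also on neurons. Of its 11 tested probes limma called 0 and the methods' t-test 0, while 3 had an unadjusted p under 0.05, and the same number were lower by the study's criterion (27.3%, beside 2.32% of all tested probes), and 9 lay below 0. The probes past the criterion were those of Ptprb at bases 6229 and 9497 and of Ptprg at base 9055. The study had already listed both genes as downregulated in these same mice, so that this share is no independent support. The median of the 4 genes was −0.22.

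All probes of Ptprb had lower means in α-Gal A(-/0) mice. At base 6229, the brightest, signals were 11.82, 11.87, 11.97 and 11.81 in α-Gal A(-/0) replicates 1 to 4 and 12.22, 12.18, 12.14 and 12.24 in the wildtype replicates. The lowest wildtype mouse thus stood above the highest α-Gal A(-/0) mouse, and the spread within each genotype was small, with an SD of 0.07 and 0.05. The log2 fold change was −0.33 (SE 0.06; 1.25-fold lower; limma, adjusted p = 0.051), short of the threshold. Within slide row 1 the difference was −0.35 and within slide row 2 it was −0.36. At base 9497, signals were 8.22, 7.92, 7.94 and 7.93 against 8.28, 8.56, 8.29 and 8.47, again without overlap, although α-Gal A(-/0) replicate 1 came close to the wildtype mice. Here the log2 fold change was −0.40 (SE 0.10; adjusted p = 0.16), and −0.15 in slide row 1 and −0.54 in slide row 2. At base 2380, the dimmest of the probes, signals were 5.99, 5.91, 6.08 and 6.01 against 6.50, 5.95, 6.16 and 6.42. Wildtype replicate 2 lay within the α-Gal A(-/0) range, and the log2 fold change of −0.26 did not pass the test (SE 0.12; adjusted p = 0.44). Adjusted p at base 6229 was between 0.0075 and 0.2 over 17 other settings and under 0.05 in 3 of them, while the log2 fold change stayed between −0.37 and −0.30.

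For Ptprg, 0 of 3 probes passed the test, and the genotypes were apart in 1 of them. At base 9055 signals were 9.90, 9.48, 9.81 and 9.71 in α-Gal A(-/0) mice and 10.23, 9.997, 10.23 and 10.20 in wildtype mice, with no overlap and a log2 fold change of −0.44 (SE 0.10; adjusted p = 0.14). The difference was −0.25 in slide row 1 and −0.53 in slide row 2. At base 5702 signals were 6.98, 7.13, 6.92 and 7.09 against 7.04, 7.07, 7.14 and 7.25, and at base 4660 they were 8.08, 8.09, 8.20 and 8.37 against 8.25, 8.11, 8.14 and 8.12. In both the genotypes overlapped, with log2 fold changes of −0.09 (SE 0.07, 95% interval −0.26 to 0.07) and 0.03 (SE 0.08, 95% interval −0.15 to 0.21). Upper and lower limits of these intervals lie above the value at base 9055. At base 9055 the 95% interval was −0.68 to −0.20, which overlaps that at base 5702 but not that at base 4660. Differences between the probes were not tested. The brightest probe of Ptprg, at base 9055, was the one without overlap of the genotypes. With limma's intensity trend and robust variances this probe was called (adjusted p = 0.047), and in 16 of 17 other settings it was not, with an adjusted p of up to 0.43.

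**Figure D2:**
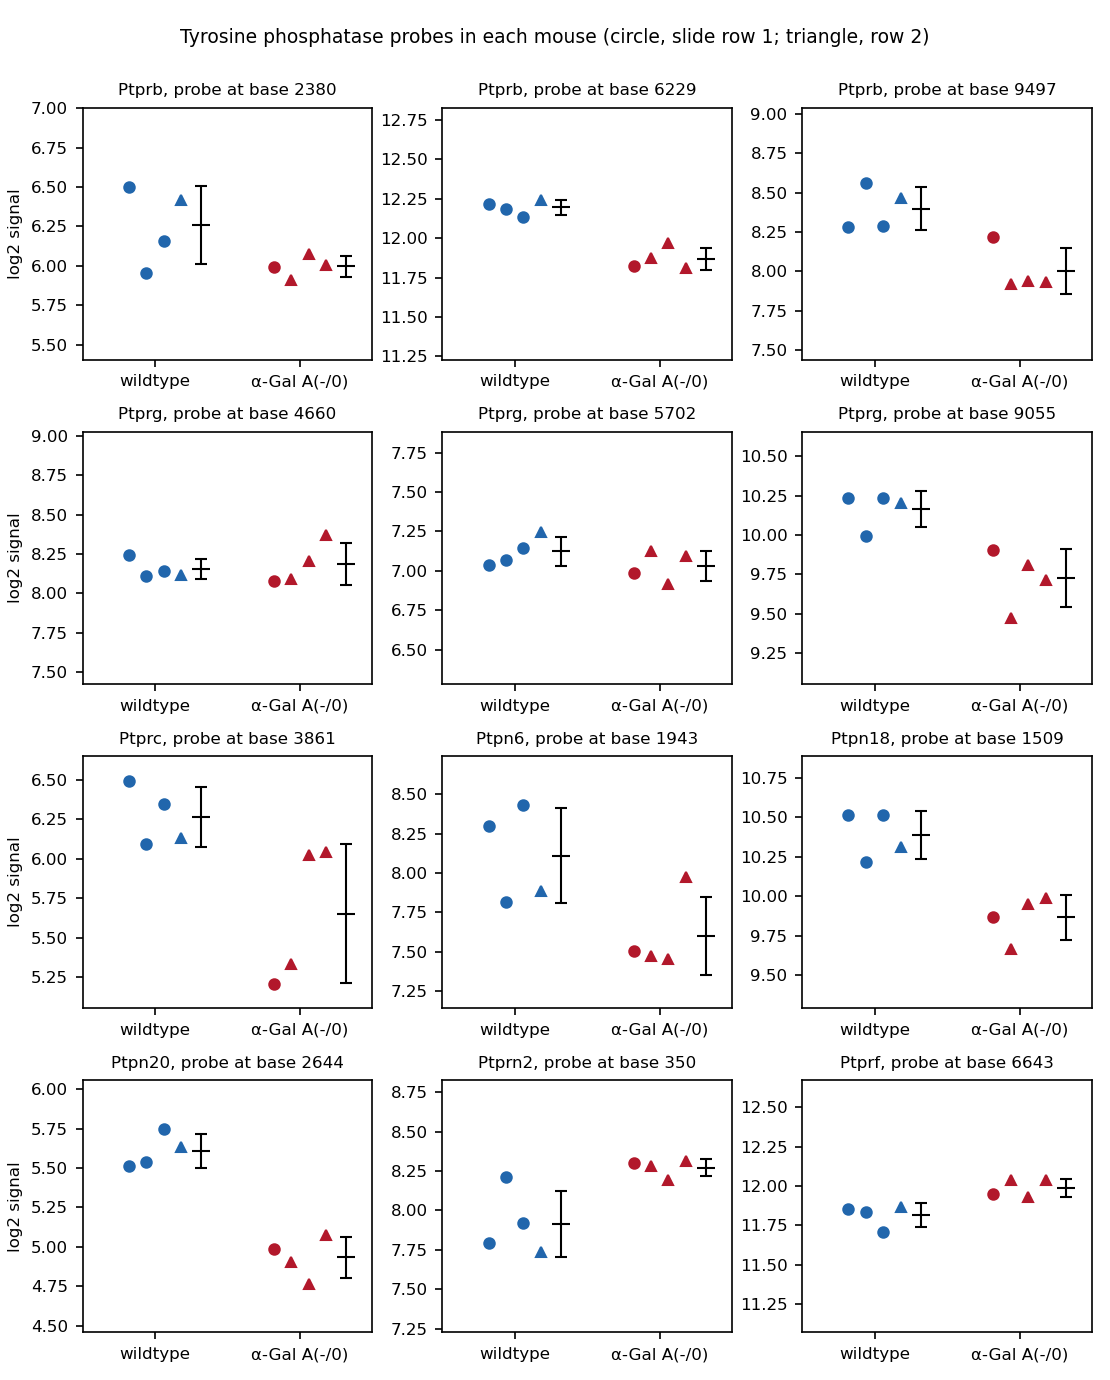
Log2 signal of 12 tyrosine phosphatase probes in each mouse, 1 point per mouse, with the mean and SD of each genotype (n = 4) beside the points; every panel spans the same number of log2 units, and circles and triangles mark the 2 rows of the slide. The genotypes are apart for Ptprb at bases 6229 and 9497, Ptprg at base 9055, Ptprc, Ptpn18, Ptpn20 and Ptprf, and overlap in the other panels.

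The other vascular members had smaller or less certain differences. Ptprj was read by 4 probes, with log2 fold changes from −0.22 to −0.02, and its brightest probe, at base 7489, had signals of 11.07 to 11.25 in α-Gal A(-/0) mice and 11.21 to 11.36 in wildtype mice (log2 fold change −0.12, SE 0.06, adjusted p = 0.49). Its genotypes overlapped in every probe. Ptprm was dim and not well above background on 1 α-Gal A(-/0) array, and its log2 fold change of 0.26 came with an interval from −0.19 to 0.72.

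Partners of Ptprb were taken from a list of 6 genes, its substrate Tek, the related receptor Tie1, their ligands Angpt1 and Angpt2, the adhesion molecule Cdh5 and the VEGF receptor Kdr. Of these 0 were called, 4 were below 0 and 2 above 0, with a median of −0.08. Angpt1, the activating ligand of Tek, had a log2 fold change of −0.38 (SE 0.08, adjusted p = 0.11) without overlap of the genotypes, and Angpt2, its context-dependent antagonist, one of 0.34 (SE 0.14, adjusted p = 0.39) with overlap. Tek itself was at −0.13 (SE 0.17) and Tie1 at −0.06 (SE 0.11). In cortex homogenate, fewer cells of a type and less RNA per cell cannot be told apart. Of 12 endothelial markers 0 were called and 8 were below 0, with a median of −0.12. Their mean log2 signal was 10.28 to 10.56 in α-Gal A(-/0) mice and 10.35 to 10.58 in wildtype mice, which overlap. Among them Cldn5, the tight junction protein of brain endothelium, was at 0.01 (SE 0.14), Pecam1 at 0.05 (SE 0.09) and Flt1 at −0.25 (SE 0.07, adjusted p = 0.23), and no listed endothelial marker was without signal. Of 8 mural cell markers 7 were below 0 and 0 were called, with mean signals of 9.61 to 9.74 against 9.68 to 9.87. The part of vessel content in the values of Ptprb and Ptprg was not tested.

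The immune members had the lowest median of all classes, and limma called 0 of their 6 tested probes, as did the methods' t-test. They were Ptprc, known as CD45, the phosphatase of leukocytes that regulates Src family kinases, its partner Ptprcap, Ptpn6, known as SHP-1, which works at inhibitory receptors of blood cells and microglia, Ptpn7 and Ptpn22 of lymphocytes, and Ptpn18, which is expressed more widely. Over the 6 tested genes the median log2 fold change was −0.42, 5 genes were below 0, and 3 of 6 probes had an unadjusted p under 0.05 with lower signals, where 7.57% of all tested probes did. Only 3 of the 6 probes were well above background on all 8 arrays. Those of Ptprc, Ptpn22 and Ptpn7 entered the test only through the wildtype mice, in which their means were higher. The median and these counts are therefore a description and no support for a difference of the class. Median SE was 0.17 in this class and 0.10 in the vascular class, and no immune interval lay within 0.4 of 0 on both sides.

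Ptpn18 had the lowest p-value of the class. Its signals were 9.87, 9.66, 9.95 and 9.99 in α-Gal A(-/0) mice and 10.51, 10.21, 10.51 and 10.31 in wildtype mice, without overlap, and its log2 fold change was −0.52 (SE 0.10; 1.44-fold lower; adjusted p = 0.069). Within slide rows it was −0.55 and −0.44. Over 17 other settings the adjusted p of Ptpn18 was 0.013 to 0.27 and under 0.05 in 2 of them. Ptprc had signals of 5.21, 5.33, 6.02 and 6.04 against 6.50, 6.09, 6.35 and 6.13. These values did not overlap, but the gap between the highest α-Gal A(-/0) mouse and the lowest wildtype mouse was small beside the range within α-Gal A(-/0) mice, and in 1 of the α-Gal A(-/0) mice the probe was not well above background. The log2 fold change was −0.62 (SE 0.21; adjusted p = 0.31), with −1.10 in slide row 1 and −0.33 in slide row 2. Ptpn6 had signals of 7.51, 7.47, 7.46 and 7.97 against 8.30, 7.82, 8.43 and 7.89, and α-Gal A(-/0) replicate 4 lay above 2 of the wildtype mice (log2 fold change −0.51, SE 0.17, adjusted p = 0.31). Ptpn22 was at −0.34 (SE 0.17), with overlap. Ptpn7, at −0.13, had an interval from −1.32 to 1.07 and so allows a change in either direction. Ptprcap was the only immune member above 0, at 0.17 (SE 0.12, adjusted p = 0.60).

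Kinases and adaptors that oppose or serve the immune members were taken from a list of 12 genes, of which 11 were tested. Of these 0 were called lower, 1 was called higher and 9 lay below 0, with a median of −0.07. Lck, the Src family kinase that Ptprc acts on in T cells, rose by 0.43 (SE 0.06, adjusted p = 0.017). Only 3 of 8 lymphocyte markers were tested, and 0 of them were called. The chromosomal neighbourhood of Lck was not counted, and its part in this value was not tested. Lyn, a Src family kinase of myeloid cells, had a log2 fold change of −0.60 (SE 0.23, adjusted p = 0.36) with overlap of the genotypes. Sirpa, a membrane receptor that recruits Ptpn6 and Ptpn11, was at −0.03 (SE 0.06).

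Markers of microglia and of astrocytes both lay lower in α-Gal A(-/0) mice, beside the immune members. Of 12 microglial markers, 11 were below 0 and 2 were called lower by their brightest probe, where 0.58% of all tested probes were, with a median of −0.26. Their mean log2 signal was 12.42 to 12.50 in α-Gal A(-/0) mice and 12.58 to 12.81 in wildtype mice, without overlap. Csf1r, the receptor on which microglia depend, fell by 0.44 in its brightest probe (SE 0.06, adjusted p = 0.012). Its other tested probes were not called, at −0.37 (SE 0.07) without overlap and at 0.59 (SE 0.45) with overlap of the genotypes. No listed microglial marker was without signal, whereas of 8 lymphocyte markers only 3 were tested, and the T cell markers Cd3d, Cd3g and Cd8a were among those that were not. Of 8 astrocyte markers 8 were below 0 and 0 were called, with a median of −0.12 and mean signals of 12.68 to 12.81 in α-Gal A(-/0) mice and 12.86 to 12.90 in wildtype mice, again without overlap. All 8 markers of excitatory neurons were below 0 as well, with 0 called and a median of −0.13, and their mean signals overlapped, at 11.92 to 12.21 against 12.10 to 12.26. The part of microglial content in the values of Ptprc, Ptpn6 and Ptpn18 was not tested.

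Neuronal members as a class lay near 0, in both directions. Of 21 probes for 11 genes limma called 0 and the methods' t-test 0, while 1 lower and 2 higher probes had an unadjusted p under 0.05. Of these 21 probes, 11 were below 0 and 10 above 0, and the median over genes was −0.04. Values smaller than 0.2 in size were found for 16 of the probes. The synapse organizers of the LAR group, Ptprs, Ptprd and Ptprf, bind ligands across the synaptic cleft. Ptprs was at −0.06 in both of its probes (SE 0.07 and 0.07), and the brightest probe of Ptprd, at base 4732, was at −0.04 with an interval from −0.17 to 0.09. For Ptprf, signals were 11.95, 12.04, 11.93 and 12.04 in α-Gal A(-/0) mice and 11.85, 11.84, 11.70 and 11.87 in wildtype mice, the only member whose genotypes were apart with higher signals in α-Gal A(-/0) mice. The log2 fold change of Ptprf was small, 0.17 (SE 0.06, adjusted p = 0.32). Whether Ptprf differs from Ptprs and Ptprd in its response was not tested.

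Among 16 ligands and scaffolds of this group, which include the Slitrk family, Il1rapl1 and the liprins, 1 was called, 10 lay below 0 and the median was −0.03. The called gene was Il1rap, the accessory protein of the interleukin-1 receptor that also binds Ptprd at synapses, and its brightest probe fell by 0.44 (SE 0.08, adjusted p = 0.045). Its other tested probes were not called, at −0.19 (SE 0.12) and −0.09 (SE 0.23), with overlap of the genotypes in both. Slitrk6 had the next lowest p, with a log2 fold change of 0.75 (SE 0.25, adjusted p = 0.30) and overlap of the genotypes.

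The neuroendocrine pair Ptprn and Ptprn2 are proteins of dense-core vesicles. Ptprn had signals of 12.27 to 12.59 in α-Gal A(-/0) mice and 12.08 to 12.37 in wildtype mice (log2 fold change 0.18, SE 0.09, adjusted p = 0.49). The probes of Ptprn2 did not move together. At base 350 signals were 8.30, 8.28, 8.19 and 8.31 in α-Gal A(-/0) mice and 7.79, 8.21, 7.92 and 7.74 in wildtype mice, where only wildtype replicate 2 reached the α-Gal A(-/0) range (log2 fold change 0.36, SE 0.10, adjusted p = 0.24). Over 17 other settings the adjusted p of this probe was 0.045 to 0.53 and under 0.05 in 1 of them. That setting left out wildtype replicate 2, the mouse that overlaps, and gave a log2 fold change of 0.46 (limma, adjusted p = 0.045). The overlapping pair near the end of the transcript was on the other side of 0, at −0.15 (SE 0.15) for base 3254 and −0.30 (SE 0.13) for base 3269. All probes of the remaining neuronal members lay between −0.15 and 0.27. Ptpn5, the striatal-enriched phosphatase that acts on glutamate receptors and on kinases of the MAPK family, was above 0 in all 3 of its probes, at 0.11 to 0.27, with overlap of the genotypes. Ptpro was at 0.26 (SE 0.16), Ptprt at −0.15 and −0.14, and Ptprr, whose probe lies near those of Ptprb on chromosome 10, at −0.12 (SE 0.08).

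Ptprz1, the phosphatase of astrocytes and oligodendrocyte precursors that binds contactins and pleiotrophin, was at −0.08 (SE 0.09) and −0.05 (SE 0.09) in its 2 tested probes. Its intervals, −0.28 to 0.12 and −0.26 to 0.15, both lay within 0.4 of 0. Of 10 ligands of Ptprg and Ptprz1, 9 were tested, 0 were called and the median was −0.01. Cntn1, the contactin with the lowest p, was at −0.19 (SE 0.06, adjusted p = 0.32), with no overlap.

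**Figure D3:**
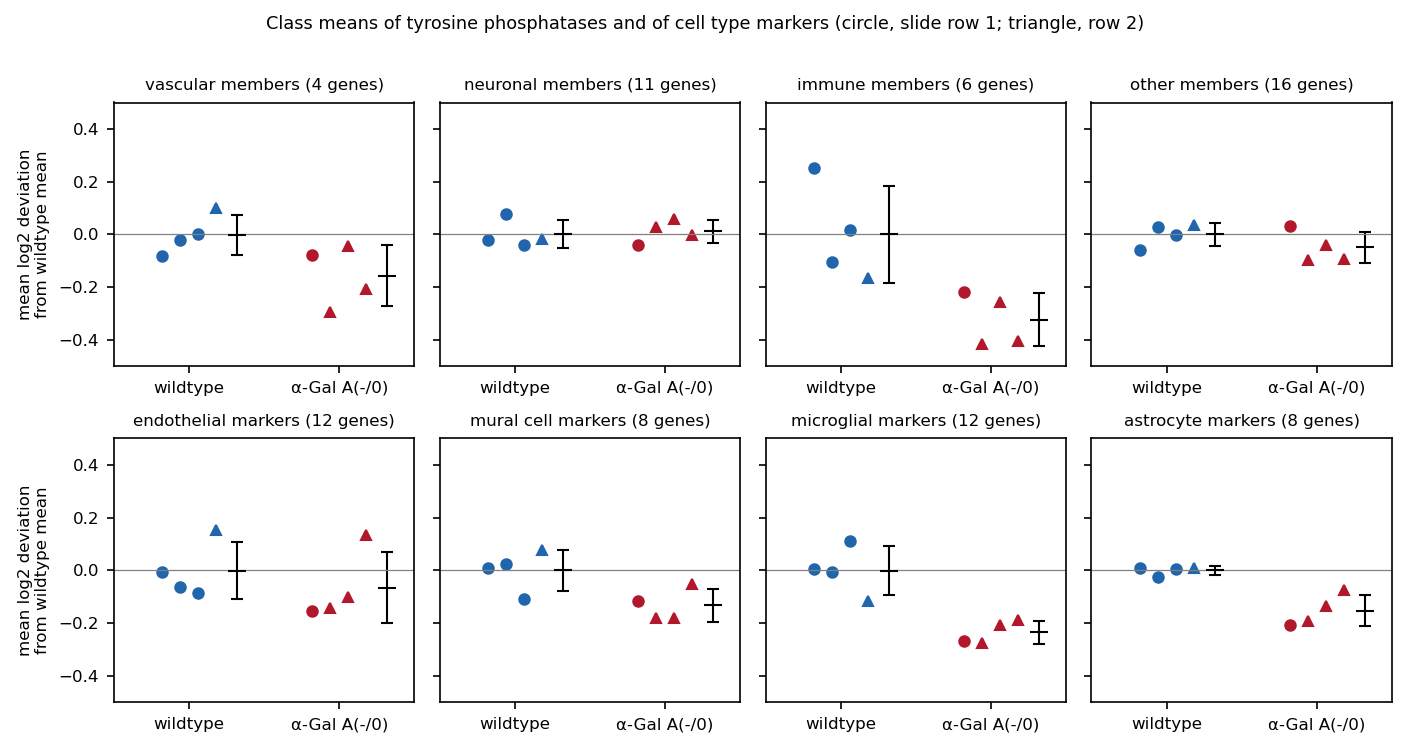
Mean deviation from the wildtype mean, in log2 units, of the vascular, neuronal, immune and other members and of endothelial, mural cell, microglial and astrocyte markers in each mouse, with the mean and SD of each genotype (n = 4) beside the points; circles and triangles mark the 2 rows of the slide. Every α-Gal A(-/0) mouse lies below every wildtype mouse for the immune members, the microglial markers and the astrocyte markers, and the genotypes overlap in the other panels. For the immune members this depends on the dim probe of Ptpn7, which was low in α-Gal A(-/0) replicate 4.

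By mouse, the mean of the brightest probes of the immune members was −0.42 to −0.22 in α-Gal A(-/0) mice and −0.16 to 0.25 in wildtype mice, relative to the wildtype mean. This gap depends on Ptpn7, which was at 3.66 in α-Gal A(-/0) replicate 4 and at 5.59 to 6.00 in the others of its genotype. Without Ptpn7, the immune mean of that replicate would not lie below all wildtype mice. Vascular members had means of −0.29 to −0.05 against −0.08 to 0.10, which overlap, and neuronal members means of −0.04 to 0.06 against −0.04 to 0.08. Within slide row 1 the vascular mean differed by −0.05 and within slide row 2 by −0.28. For immune members the differences were −0.27 and −0.19, and for neuronal members −0.05 and 0.05.

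Outside these classes, Ptpn20 was the only called probe. Signals were 4.98, 4.91, 4.76 and 5.08 in α-Gal A(-/0) mice and 5.51, 5.54, 5.75 and 5.63 in wildtype mice, without overlap, and it fell by 0.68 (SE 0.09; limma, adjusted p = 0.0099). The difference was −0.62 in slide row 1 and −0.72 in slide row 2. The probe was dim. It was well above background on 4 of 4 wildtype arrays and 3 of 4 α-Gal A(-/0) arrays, so that it entered the test only through the genotype in which it was higher, and the size of its change is uncertain. With normexp background correction the value was −0.26, and it no longer passed the test (adjusted p = 0.089). Around Ptpn20, within 1 Mb on either side on chromosome 14, 10 of 46 other tested probes were called (21.7%, beside 0.885% of all tested probes), 8 lower and 2 higher, among them those of Mapk8, Ldb3, Sncg, Anxa8 and Syt15. A similar count was found around the Ptprn2 probe at base 350 on chromosome 12, where 7 of 20 other probes were called (35%), all lower, whereas the Ptprn2 probe was higher. Within 1 Mb of the Ptprb probe at base 6229, 0 of 24 other probes were called, around Ptpn18 0 of 36, and around the Ptprg probe at base 9055 1 of 7. The part of the chromosomal neighbourhood in the values of Ptpn20 and Ptprn2 was not tested.

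Ptpn2, a phosphatase of JAK and STAT signalling, gave 3 close values, from −0.21 to −0.19, over probes that share no bases, and its brightest probe had signals of 10.14 to 10.36 in α-Gal A(-/0) mice and 10.40 to 10.56 in wildtype mice (log2 fold change −0.21, SE 0.07, adjusted p = 0.29). Its close relative Ptpn1, a phosphatase of insulin and leptin receptors, was between −0.005 and 0.14. Ptpru, an adhesion phosphatase related to Ptprm, was at −0.18 without overlap in its brightest probe (SE 0.07, adjusted p = 0.33). The widely expressed Ptpn11, known as SHP-2, which transmits growth factor signals, was at −0.07 (SE 0.06), and Ptpra, which activates Src kinases, at −0.04 (SE 0.06). Of 15 kinases, receptors and substrates of Ptpn5, Ptpn11 and Ptpn1, 14 were tested, 0 were called, and the median was 0.01. Igf1r, a growth factor receptor, was at −0.20 (SE 0.06, adjusted p = 0.27) and Frs2, an adaptor that recruits Ptpn11, at −0.13 (SE 0.06, adjusted p = 0.41).

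Of the 69 probes, 6 were not tested. Both probes of Ptprq, a phosphatase of the inner ear, and the probe of Ptpn7 at base 767 were well above background on 0 of 8 arrays. That of Ptpru at base 242 and that of Ptprv at base 4712 were so on 1 array each, and the probe of Ptprz1 at base 1518 on 4. Of the tested probes, 11 were well above background on fewer than 8 arrays, and each of these entered the test only through the wildtype mice. Member probes well above background numbered 53 in α-Gal A(-/0) replicate 2 and 63 to 64 on every other array of either genotype. This one-sided entry therefore goes with 1 array of low detection, and its relation to genotype was not tested.

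For 14 genes more than 1 probe was tested, and in 4 of them the probes lay on both sides of 0. The 5 genes with the widest spread between probes were Ptprd (0.75 between the highest and the lowest log2 fold change), Ptprn2 (0.65), Ptprg (0.47), Ptprj (0.20) and Ptpru (0.17). In Ptprd the spread came from 1 dim probe, at base 483, which was well above background on only 1 of 4 α-Gal A(-/0) arrays. There signals were 4.53, 4.09, 4.47 and 5.07 against 4.62, 5.61, 4.77 and 5.59, and the log2 fold change was −0.61 with an interval from −1.27 to 0.05. The other probes of Ptprd lay between −0.09 and 0.14. For Ptprs, Ptprt and Ptpn2 the probes differed by at most 0.02.

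**Figure D4:**
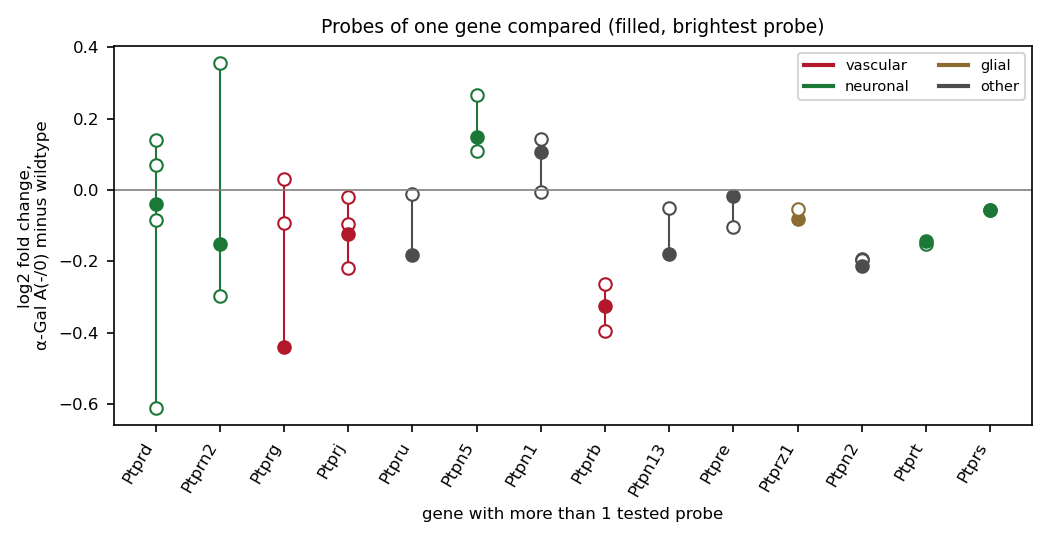
Log2 fold change, α-Gal A(-/0) minus wildtype, of each tested probe of the 14 genes with more than 1 tested probe, ordered by the spread between probes; lines join the probes of a gene, filled points are the brightest probe and colours give the class. The probes of Ptprd, Ptprn2 and Ptprg are far apart, and those of Ptprb all lie between −0.40 and −0.26.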

How the data were processed

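Prefrontal cortex RNA of 8 mice was labelled with Cyanine-3 and hybridized to Agilent SurePrint G3 arrays. The deposited intensity values are processed signals of Feature Extraction (version 10.7.3.1 per the submitters' processing notes), without normalization between arrays. The normalized values given for the whole series were not used here. Positions follow the array's design, which uses mm9.

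Spots of a probe were averaged, and their log2 values were brought to one distribution in all 8 mice by quantile normalization. Controls were omitted, as were 81 probes whose spots were flagged uneven on 1 array or more. A probe was tested if the scanner flagged it well above background in all 4 mice of either genotype. The comparison used limma 3.58.1 (lmFit, eBayes) under R 4.3.3 with statmod 1.5.0. Tests were two-sided, p-values were adjusted by Benjamini-Hochberg across tested probes, and an adjusted p under 0.05 counted as a call. The steps were tested on simulated data. Where a list is counted by gene, the brightest tested probe stands for the gene. Class means by mouse are means of these probes after subtraction of the wildtype mean.

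The members, their classes, the lists and the tests were chosen with earlier results of these data known. Named were all probes of Ptprb and Ptprg, every called probe and every probe past the study's criterion (unadjusted p of at most 0.01 and fold change of at least 1.2), the brightest probe of the 3 genes with the lowest p in each class, the 5 genes whose probes differ most, and in each list the called genes and the 2 with the lowest p. Markers and further members are named as examples, chosen after their values were seen, and some genes of the lists are not reported here by name. Alternatives were a 75th percentile shift, normexp with an offset of 50, the filter dropped or required in all 8 mice, omission of saturated probes, the methods' t-test, limma with a trend and robust variances, a replicate block, the slide row as a block, each array left out in turn and, for classes, the mean over probes. Each slide row alone was added after the data were seen. Same replicate numbers did not pair the mice, since the correlations of their residuals were −0.09, 0.14, 0.01 and 0.15. Probe sequences come from the array files. Plots were made in Python 3.11.15 (matplotlib 3.10.9, pandas 2.3.3, numpy 2.4.6).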

Additional observations from a re-analysis of the deposited data

Results flagged for a closer look

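In 42 groups of 4 mice, over the named probes and the class means, 5 held a mouse far from the other 3 by Dixon's test, which chance alone gives for about 1 group in 20. The Ptprb probe at base 9497 was at 8.22 in α-Gal A(-/0) replicate 1 and at 7.92 to 7.94 in the others of its genotype. At base 9055 of Ptprg, wildtype replicate 2 was at 9.997 and the other wildtype mice at 10.20 to 10.23. Ptpn6 was at 7.97 in α-Gal A(-/0) replicate 4 and at 7.46 to 7.51 in the others. The Ptpn2 probe at base 8312 was low in both genotypes in the mouse numbered 2, at 10.14 beside 10.33 to 10.36 in α-Gal A(-/0) mice and at 10.40 beside 10.53 to 10.56 in wildtype mice.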

How the results depend on the processing

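The count of called member probes was 1 and depended on the setting. It was 2 with normexp (Ptpn18 and Ptprb), 3 with an intensity trend and robust variances (Ptpn18, Ptprb and Ptprg), 0 with the methods' t-test, 0 with the slide row as a block, and 1 to 2 with each array left out, where the second was Ptprn2 without wildtype replicate 2. With the replicate block 0 member probes and 156 of all probes were called, beside 304 without it, and Ptpn20 had an adjusted p of 0.10; these mice share only a number. Ptpn20 kept its direction in all 16 settings that tested it and was called in 11, with values from −0.73 to −0.26 and adjusted p from 0.0099 to 0.10. Its dim probe was not tested when a signal on all 8 arrays was required. Member probes past the study's criterion numbered 6, and 4 to 7 over all settings. The Ptprg probe at base 4660 was −0.029 to 0.068 with each array left out, below 0 without α-Gal A(-/0) replicate 4 (and −0.09 in slide row 1 alone), and no other named probe changed direction in the settings planned at the outset. The median of the vascular members, −0.22, was −0.26 with the 75th percentile shift, −0.33 with a signal required on all 8 arrays, which leaves out Ptprm, and −0.14 with the mean over probes. That of the immune members, −0.42, was −0.23 with normexp. Those of the neuronal and other members moved by less than the spread between mice. Where settings changed a call, the cause was not tested, and dim probes such as those of Ptpn20, Ptprc, Ptprm and Ptpn22 limit what can be said of them.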
